A study of Mus musculus with 8 samples.

Results

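The surface genes described here are 10 costimulatory and checkpoint genes, chosen by name with earlier results of these data known: Cd274, Pdcd1lg2, Cd80, Cd86, Icosl, Cd40, Cd69, Cd83, Cd47 and Sirpa. All 10 had a row among the 24421 genes of the count table, and all 10 were among the 12254 genes tested, that is, those with a count in 2 or more of the 8 libraries. RNA was sequenced from bone marrow neutrophils, isolated magnetically, of 8-week-old female C57BL/6 mice that were either wild type (WT) or Padi4 KO. The Padi4 KO mice carry a germline deletion of exon 1 of Padi4, the gene of an enzyme that converts arginine residues of histones and other proteins to citrulline, so every cell of the animal lacks it. Cells of each genotype were left unstimulated or given R848, an agonist of TLR7, at 1 µg/ml for 6 h, which makes 4 groups of 2 libraries. The titles of the unstimulated libraries give 0 h and the protocol gives 6 h; if the titles hold, every R848 response below also includes 6 h of culture. The study's methods describe samples run in duplicate and no source says that the 2 libraries of a group came from separate mice, so the p-values measure the spread between these libraries, which may be technical.

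T cells respond fully to antigen only when the antigen receptor is engaged together with costimulatory receptors. Cd80 and Cd86 are the ligands of CD28, which activates, and of CTLA-4, which inhibits; Icosl is the ligand of ICOS; Cd40 is a TNF receptor family member bound by CD40 ligand. Cd274 (PD-L1) and Pdcd1lg2 (PD-L2) bind PD-1 and restrain T cells, Cd47 binds Sirpa on phagocytes as a signal that inhibits engulfment, and Cd69 and Cd83 are surface markers of activated leukocytes. Resting neutrophils are known for high Sirpa and little of the B7 ligands.

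The members lie on 6 chromosomes of the mouse build GRCm38. Cd274 (chromosome 19, 29367455 to 29388095) and Pdcd1lg2 (chromosome 19, 29410919 to 29471161) are neighbours on the plus strand. Chromosome 16 holds Cd80 (38455561 to 38496335, plus strand), Cd86 (36603869 to 36666081, minus strand) and Cd47 (49800533 to 49915010, plus strand). Chromosome 2 holds Cd40 (165055627 to 165072948) and Sirpa (129592835 to 129632228), both on the plus strand. Icosl is on chromosome 10 (78069302 to 78083913, plus strand), Cd69 on chromosome 6 (129267325 to 129275436, minus strand) and Cd83 on chromosome 13 (43784775 to 43803132, plus strand). An antisense gene, AC119228.1, overlaps exons of Cd274, and the library kit does not keep strand, so reads of the pair cannot be told apart. Sirpa has related genes in the table, Sirpb1a and Sirpb1b, with means of 5 and 41.5 counts against 510.2 for Sirpa, and reads shared among them are uncertain.

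RefSeq promoter windows on GRCm38.p6, of 300 bases from 250 before to 50 after a start site, matched 5 of the 10 members. The windows of Cd274 and Icosl are shown because these genes rose together after R848 in both genotypes, that of Cd80 because it was the member that differed most clearly between genotypes, and that of Pdcd1lg2 because it is the neighbour of Cd274 and holds a motif. Capitals mark a match to a motif searched on both strands.
Cd274, chr19:29367188-29367487, plus strand: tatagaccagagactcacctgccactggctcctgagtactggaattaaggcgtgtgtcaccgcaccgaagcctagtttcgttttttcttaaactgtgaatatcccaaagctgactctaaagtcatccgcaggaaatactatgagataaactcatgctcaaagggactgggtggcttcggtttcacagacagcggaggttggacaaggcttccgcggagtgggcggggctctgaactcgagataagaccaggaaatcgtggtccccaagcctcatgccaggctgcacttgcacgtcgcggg
Icosl, chr10:78069118-78069417, plus strand: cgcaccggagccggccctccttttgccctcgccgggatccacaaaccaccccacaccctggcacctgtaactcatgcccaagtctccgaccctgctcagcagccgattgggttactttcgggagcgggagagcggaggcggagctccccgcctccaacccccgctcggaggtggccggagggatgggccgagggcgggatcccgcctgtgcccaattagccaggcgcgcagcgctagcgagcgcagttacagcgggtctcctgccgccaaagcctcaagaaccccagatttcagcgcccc
Cd80, chr16:38458683-38458982, plus strand: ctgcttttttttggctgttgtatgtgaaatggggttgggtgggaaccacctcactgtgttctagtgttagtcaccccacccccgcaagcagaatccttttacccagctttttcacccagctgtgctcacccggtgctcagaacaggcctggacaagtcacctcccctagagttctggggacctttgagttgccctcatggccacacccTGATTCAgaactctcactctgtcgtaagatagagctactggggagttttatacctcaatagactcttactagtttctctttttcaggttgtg
Pdcd1lg2, chr19:29410669-29410968, plus strand: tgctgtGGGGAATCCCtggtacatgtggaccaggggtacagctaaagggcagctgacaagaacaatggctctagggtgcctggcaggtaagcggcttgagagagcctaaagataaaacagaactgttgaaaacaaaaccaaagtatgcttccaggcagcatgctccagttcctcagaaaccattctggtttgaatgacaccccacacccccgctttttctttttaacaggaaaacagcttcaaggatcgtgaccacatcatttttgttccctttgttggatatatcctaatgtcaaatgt
The search used the consensus of NF-kB, the GAS letters TTCNNNGAA, the AP-1 letters TGANTCA and the CRE letters TGACGTCA. The Cd80 window held an AP-1 match, TGATTCA, at -42 to -36 from the start site, and 7.81% of 32851 RefSeq promoters held one. That window lies inside the gene as placed above, which starts at 38455561, so its start site is not the gene's first one there. The Pdcd1lg2 window held an NF-kB match, GGGGAATCCC, at -244 to -235, and 4.51% of the promoters held one. These motifs are nearly or fully palindromic, each match was found on both strands, and neither overlapped a match to another motif. No match to the 4 motifs was found in the windows of Cd274, Icosl or Cd47. The GAS letters were in 8.3% of all promoters and the CRE letters in 1.79%. A match is a description of the letters and no evidence of binding.

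The libraries held between 562446 and 1177972 counts on genes, and the mean total of the Padi4 KO libraries was 1.66 times that of the WT libraries. At these totals the floor of 3 counts was worth between 2.55 and 5.33 CPM, the count relative to the library's size. Padi4 had 590 and 527 counts in unstimulated WT, and 166 and 234 once R848 was given; in Padi4 KO it had 40 and 54 counts, and 34 and 21 with R848. Of 11 neutrophil markers, 10 were in the table, and their summed level was high in every library: 121900 to 128500 CPM in unstimulated WT, 103800 to 118500 in WT after R848, 100700 to 102300 in unstimulated Padi4 KO and 85240 to 86660 in Padi4 KO after R848. The label of the cells thus held. In these CPM, which use library totals, the sum was lower after R848 and lower in Padi4 KO. The members' CPM use TMM factors: 1.01 and 1.03 in unstimulated WT, 0.804 and 0.845 in WT after R848, 1.23 and 1.25 in unstimulated Padi4 KO, and 0.956 and 0.960 in Padi4 KO after R848. With those factors the sum was higher after R848 in Padi4 KO and overlapped in WT. It was still lower in Padi4 KO than in WT. The summed level of 11 monocyte and macrophage markers was 1575 to 1668 CPM in unstimulated WT, 3406 to 3522 in WT after R848, 2399 to 2428 in unstimulated Padi4 KO and 3640 to 3718 in Padi4 KO after R848. The summed level of 13 dendritic cell markers was also higher after R848, going from 55.1 to 56.2 up to 97.2 to 121.3 CPM in WT and from 78.2 to 86.2 up to 116.3 to 124.3 CPM in Padi4 KO, with Siglech at 0 in 7 libraries and Xcr1 and Clec9a at 0 in 5 libraries each. The 11 erythroid markers summed to between 8.97 and 64.0 CPM in WT and between 637 and 857 CPM in Padi4 KO, and their 4 haemoglobin genes were listed at 0 in all 8 libraries. The 10 endothelial and stromal markers summed to 231.1 to 298.0 CPM in unstimulated WT and 594.6 to 762.0 in unstimulated Padi4 KO, and after R848 to 121.3 to 122.6 and 76.7 to 84.9. Col1a1, Col1a2, Sparc and Vcam1 made up most of that sum (highest counts 316, 397, 97 and 67). Emcn was at 0 in 8 libraries, Cdh5, Lepr and Col3a1 in 7 each, and Cxcl12 in 6. The 6 platelet and megakaryocyte markers were at 90.7 to 103.0 and 183.2 to 205.2 CPM without stimulation, and at 11.96 to 16.4 and 38.2 to 45.0 after R848.

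Per kilobase of exon, Sirpa was the member with the highest level, at a mean of 124 CPM per kb over the 8 libraries, followed by Cd47 at 40.6, Icosl at 24.7 and Cd274 at 20.8. Cd80 (4.30), Cd69 (2.87), Cd86 (1.81), Pdcd1lg2 (1.08), Cd40 (0.927) and Cd83 (0.498 CPM per kb) were far below. The order depended on the group. In unstimulated WT cells, Sirpa (144.9 ± 5.43 CPM per kb, SD, n = 2), Cd47 (34.4 ± 0.807) and Icosl (13.2 ± 4.46) led, and Cd274 stood at 1.12 ± 0.231, below Cd80 at 3.77 ± 0.606 and Cd86 at 1.79 ± 0.140. In WT cells after R848, Cd274 reached 41.8 ± 0.283 CPM per kb and stood beside Icosl at 40.5 ± 1.78, a difference within their spread. Cd80 (9.44 ± 4.56 CPM per kb) and Cd69 (7.35 ± 1.53) in that group also differed by less than their spread. In Padi4 KO cells after R848, Cd274 (38.0 ± 2.44 CPM per kb) and Icosl (36.6 ± 2.26) again lay within their spread of each other. Of the 10 members, 6 had a mean of 10 counts or more (Cd274, Cd80, Icosl, Cd69, Cd47 and Sirpa), and the other 4 (Pdcd1lg2, Cd86, Cd40 and Cd83) rest on 7 to 46 counts over all 8 libraries.

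**Figure D1:**
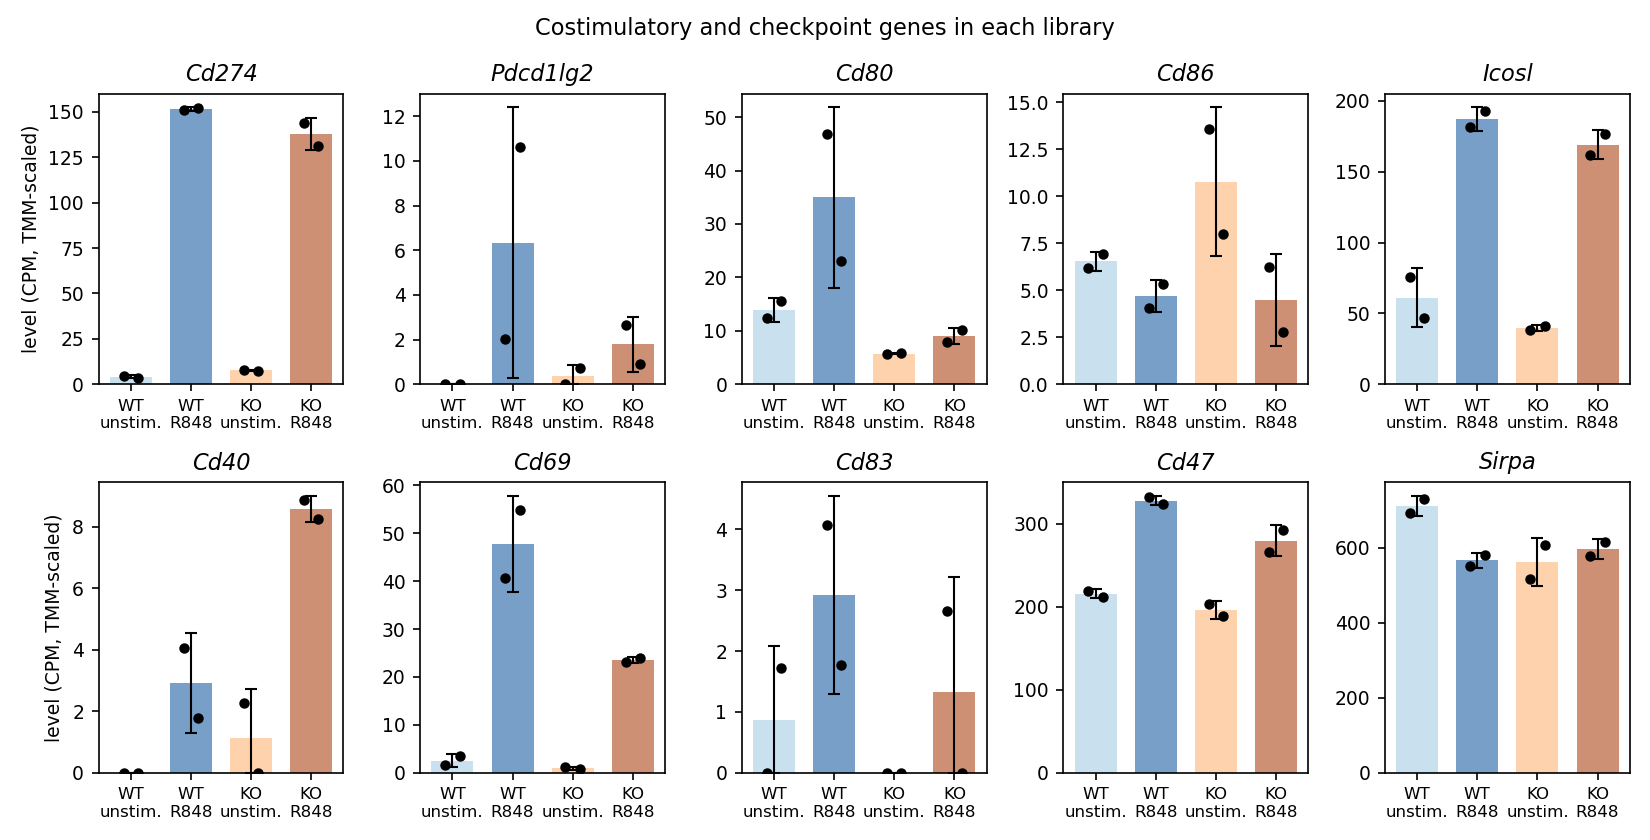
Level of each gene in CPM scaled with TMM factors (y axis, from 0), with points for the 2 libraries of each group, bars for the mean and error bars for the SD. Cd274 stood between 131 and 152 CPM in the 4 libraries given R848 and at or below 7.91 CPM in the 4 unstimulated libraries.

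R848 raised the PD-1 ligand gene Cd274, the ICOS ligand gene Icosl and the early activation marker Cd69 in neutrophils of both genotypes. In each of these 3 genes, the R848 libraries lay above all unstimulated libraries. In WT cells, edgeR's quasi-likelihood test called 5 of the 10 members higher and 0 lower after R848, at a Benjamini-Hochberg adjusted p below 0.1 with more than a 2-fold change. Of all genes tested, 18.0% were called, 7.17% higher and 10.8% lower. In Padi4 KO cells it called 4 higher and 0 lower, beside 16.9% of all genes, 8.07% higher and 8.84% lower. At any fold, 7 members passed in WT beside 29.5% of all genes, and 5 in Padi4 KO beside 35.1%. The members, like the lists below, were chosen with earlier results of these data known. Their shares beside those of all genes are therefore descriptions and no independent support. Both R848 libraries lay above both unstimulated libraries for 8 of the 10 members in WT, beside 23.2% of all genes, and for 7 in Padi4 KO, beside 29.5%. Of these, 6 in each genotype had a library above the floor of 3 counts; Cd40 and Cd83 in WT and Pdcd1lg2 in Padi4 KO did not. Both R848 libraries lay below both unstimulated libraries for 2 members in WT, Cd86 and Sirpa, beside 31.3% of all genes, and for 1 in Padi4 KO, Cd86, beside 31.7%. Pdcd1lg2 in WT was set at its bound, and other members that had a group at 0 were set to no change. The median log2 changes over all 10 members were then 0.95 in WT and 1.18 in Padi4 KO. Over the 6 members with a mean of 10 counts or more they were 1.44 and 1.35, beside -0.07 and 0.08 over the 6912 genes with such a mean. The order of the genotypes thus depended on the thinly counted members. In whole populations, a gain of cells of a type and a gain of RNA per cell cannot be told apart. The marker sums of monocytes and macrophages and of dendritic cells were higher after R848 in both genotypes, and those of platelets and stromal cells were lower. The neutrophil sum was lower with library totals. With the TMM factors used for the members it was higher in Padi4 KO and overlapped in WT. The values are given above, and the part of these cell types in the responses was not tested.

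Cd274, the gene of PD-L1, rose in both genotypes from a few counts per library. In WT it had 3 and 2 counts without stimulation, or 4.64 and 3.45 CPM, and 74 and 86 counts after R848, or 150.8 and 152 CPM. In Padi4 KO it had 7 and 10 counts without stimulation, or 7.91 and 7.26 CPM, and 162 and 143 counts after R848, or 143.9 and 131 CPM. The gene was thus near the floor before stimulation, and the groups did not overlap. Its log2 change was 5.17 ± 0.37 (SE) in WT, with an edgeR adjusted p of 3.76e-43, and 4.17 ± 0.25 in Padi4 KO, with an edgeR adjusted p of 6.82e-63. As a ratio of summed counts scaled for library size, the rise was 37.2-fold in WT, with an exact 95% counting interval of 15.6 to 116.1, and 18.3-fold in Padi4 KO, with an interval of 11.3 to 31.9. These intervals cover counting error only and overlap. The responses differed by -0.996 ± 0.70 on the log2 scale (Padi4 KO minus WT, edgeR adjusted p = 0.591), with a 95% interval of -2.36 to 0.37, so a smaller rise in Padi4 KO was not detectable at this depth, and the 2 responses were not shown to be alike.

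Pdcd1lg2, the gene of PD-L2 next to Cd274, was barely counted. It had 0 and 0 counts in unstimulated WT, 1 and 6 in WT after R848, 0 and 1 in unstimulated Padi4 KO, and 3 and 1 in Padi4 KO after R848. The WT rise was called by edgeR (adjusted p = 0.0240) on 7 counts, of which 6 came from 1 library; against a floor of 3 counts per library it was at least 1.35-fold higher. Without WT R848 replicate 2 the edgeR adjusted p was 0.422, and it was also over the threshold without unstimulated WT replicate 1 (0.136) or replicate 2 (0.1102).

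Icosl, the ligand of the T cell receptor ICOS, was the second member with a firm rise in both genotypes. In WT it had 49 and 27 counts without stimulation, or 75.8 and 46.6 CPM, and 89 and 109 counts after R848, or 181 and 193 CPM. The Padi4 KO libraries went from 34 and 57 counts, or 38.4 and 41.4 CPM, to 182 and 192 counts, or 161.7 and 176.5 CPM. The groups did not overlap in either genotype, and the unstimulated WT libraries were the most spread. The log2 change was 1.60 ± 0.19 in WT, a 3.02-fold rise with an edgeR adjusted p of 2.72e-15. In Padi4 KO it was 2.07 ± 0.16, a 4.19-fold rise with an edgeR adjusted p of 2.88e-35. The difference of response, 0.47 ± 0.27 (edgeR adjusted p = 0.465, interval -0.06 to 1.00), did not pass the test.

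Cd80 and Cd86, which share their receptors, were both thinly counted, and no test compared them with each other. Cd80 in WT had 8 and 9 counts without stimulation, or 12.4 and 15.5 CPM, and 23 and 13 counts after R848, or 46.9 and 23.0 CPM. Its WT rise of 1.29 ± 0.43 on the log2 scale was called by edgeR (adjusted p = 0.0125) and was not called by DESeq2 (1.39, adjusted p = 0.130) or without WT R848 replicate 1 (0.86, edgeR adjusted p = 0.333). Nor was it called without unstimulated WT replicate 1 (1.13, edgeR adjusted p = 0.122), or with library size alone, where the change of 0.99 fell short of 2-fold. In Padi4 KO, Cd80 had 5 and 8 counts without stimulation, or 5.65 and 5.81 CPM, and 9 and 11 after R848, or 8.00 and 10.1 CPM. That change, 0.64 ± 0.52 (edgeR adjusted p = 0.390), did not pass the test, and the difference of response was -0.65 ± 0.70 (edgeR adjusted p = 0.785, interval -2.03 to 0.72).

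Cd86 passed the test in neither genotype. It had 4 and 4 counts in unstimulated WT and 2 and 3 in WT after R848, and the change of -0.45 ± 0.85 had an edgeR adjusted p of 0.771. In Padi4 KO it had 12 and 11 counts without stimulation and 7 and 3 after R848, with a log2 change of -1.15 ± 0.56 and an edgeR adjusted p of 0.108. That value lay close to the threshold, and 8 of 14 alternatives put it past it, at log2 changes of -1.17 to -1.97. The log2 ratio of Cd80 to Cd86 raw counts within a library, which no scaling between libraries can change, was 1.0 and 1.17 in unstimulated WT and 3.52 and 2.12 in WT after R848. It was -1.26 and -0.46 in unstimulated Padi4 KO and 0.36 and 1.87 in Padi4 KO after R848. The R848 libraries of each genotype had the higher ratios, and this pair was set side by side after the values were seen.

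**Figure D2:**
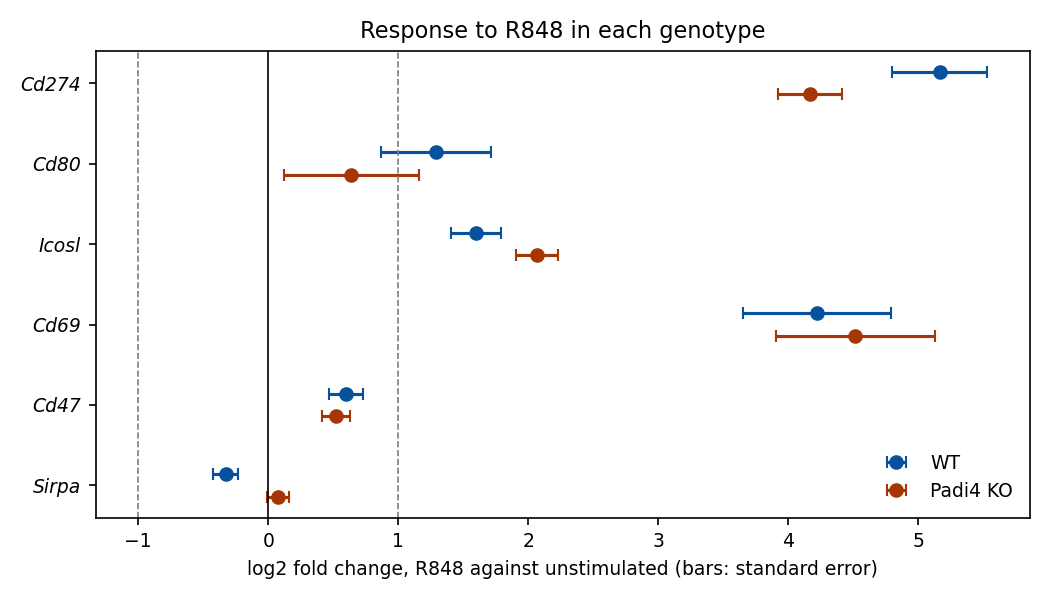
Log2 fold change of R848 against unstimulated cells (x axis) for the 6 genes with at least 10 counts on average, in WT (blue) and Padi4 KO (brown), with standard errors; dashed lines mark a 2-fold change. Cd274, Icosl and Cd69 lie beyond 2-fold in both genotypes, Cd47 lies between 0.52 and 0.60, and Sirpa lies at -0.33 in WT and 0.08 in Padi4 KO.

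Cd69, a C-type lectin that marks early activation, also rose in both genotypes. WT libraries had 1 and 2 counts without stimulation and 20 and 31 with R848. Padi4 KO libraries had 1 and 1, then 26 and 26. In CPM, the R848 libraries stood at 40.8 and 54.9 in WT and at 23.1 and 23.9 in Padi4 KO. The log2 change was 4.22 ± 0.57 in WT (edgeR adjusted p = 2.44e-12) and 4.52 ± 0.61 in Padi4 KO (edgeR adjusted p = 2.27e-12). With 3 and 2 summed counts before stimulation, the fold is loose: the ratio was 19.8 in WT, with an exact counting interval of 6.39 to 98.9, and 26.6 in Padi4 KO, with an interval of 6.997 to 225.3. Between genotypes the response differed by 0.30 ± 0.94 (edgeR adjusted p = 0.997, interval -1.55 to 2.14).

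Cd40, the TNF receptor family costimulator, was called in Padi4 KO. It had 2 and 0 counts in unstimulated Padi4 KO and 10 and 9 after R848, against 0 and 0 in unstimulated WT and 2 and 1 in WT after R848. The Padi4 KO rise had a ratio of 9.71 with an exact counting interval of 2.34 to 86.0 and an edgeR adjusted p of 0.00183; it was not called by DESeq2 (adjusted p = 0.188) or without unstimulated Padi4 KO replicate 2 (edgeR adjusted p = 0.168). All 4 WT libraries were at or under the floor of 3 counts, so no WT change could be measured. In the test of the difference the edgeR adjusted p was 0.853, so a response particular to Padi4 KO was not shown. Cd83, a marker of mature dendritic and activated cells, had at most 3 counts in any library (0 and 1, 2 and 1, 0 and 0, and 3 and 0 in the order above, WT first), and no change in it could be measured.

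Cd47, the ligand of Sirpa, rose by less than 2-fold in both genotypes with TMM factors. In WT it had 142 and 123 counts without stimulation, or 219.5 and 212 CPM, and 163 and 183 after R848, or 332 and 324 CPM. The Padi4 KO libraries had 180 and 260 counts, or 203.5 and 189 CPM, and then 300 and 319, or 266.5 and 293 CPM. The groups did not overlap in either genotype. The log2 change was 0.60 ± 0.13 in WT (edgeR adjusted p = 3.66e-05) and 0.52 ± 0.11 in Padi4 KO (edgeR adjusted p = 1.13e-05), past the false discovery rate but under 2-fold. With library size alone the changes were 0.30 in WT (edgeR adjusted p = 0.0770) and 0.14 in Padi4 KO (edgeR adjusted p = 0.320), so the latter no longer passed. Between genotypes it differed by -0.08 ± 0.17 (edgeR adjusted p = 0.936), with an interval of -0.41 to 0.25.

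Sirpa, the inhibitory receptor of phagocytes, was the most abundant member and the one whose response differed between genotypes in the test. In WT it had 448 and 423 counts without stimulation, or 692.6 and 730.3 CPM, and 271 and 328 after R848, or 552 and 581 CPM. The Padi4 KO libraries had 456 and 836 counts without stimulation, or 515.6 and 607 CPM, and 650 and 670 after R848, or 577.5 and 616 CPM. The WT libraries did not overlap and the Padi4 KO libraries did. Sirpa fell in WT by 0.33 on the log2 scale (SE 0.10, edgeR adjusted p = 0.00417), under 2-fold. The fall did not pass with DESeq2 (-0.26, adjusted p = 0.175), with separate models for each genotype (-0.20, edgeR adjusted p = 0.161) or without WT R848 replicate 1 (-0.15, edgeR adjusted p = 0.370), and it was -0.63 with library size alone. In Padi4 KO the change was 0.08 ± 0.08 (edgeR adjusted p = 0.524). The difference of response was 0.40 ± 0.13 (edgeR adjusted p = 0.0480, interval 0.15 to 0.65), and it was the 1 member called in that test, beside 4.71% of all genes called, 3.45% higher and 1.26% lower, a split that single libraries reverse (given with the scalings).

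This difference leaned on the scaling and on single libraries. The median difference over the 6912 genes was 0.18 with TMM factors and 0.02 with relative log expression factors, and with the latter Sirpa's difference was 0.25 with an edgeR adjusted p of 0.441. It was also not called by DESeq2 (0.25, adjusted p = 0.662), with library size alone (0.33, edgeR adjusted p = 0.186) or in 6 of the 8 fits that left out 1 library, where the value went down to 0.09 without WT R848 replicate 1. Within libraries, the log2 ratio of Cd47 to Sirpa raw counts rose from -1.66 and -1.78 to -0.73 and -0.84 in WT, and from -1.34 and -1.69 to -1.12 and -1.07 in Padi4 KO. The ratio was higher in the R848 libraries of both genotypes, without overlap. With 2 libraries a group this is common. Among levels of single genes, 23.2% lay wholly higher and 31.3% wholly lower after R848 in WT, and 29.5% and 31.7% in Padi4 KO. No such share was taken for ratios. Cd47 and Sirpa, too, were set side by side after the values were seen.

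**Figure D3:**
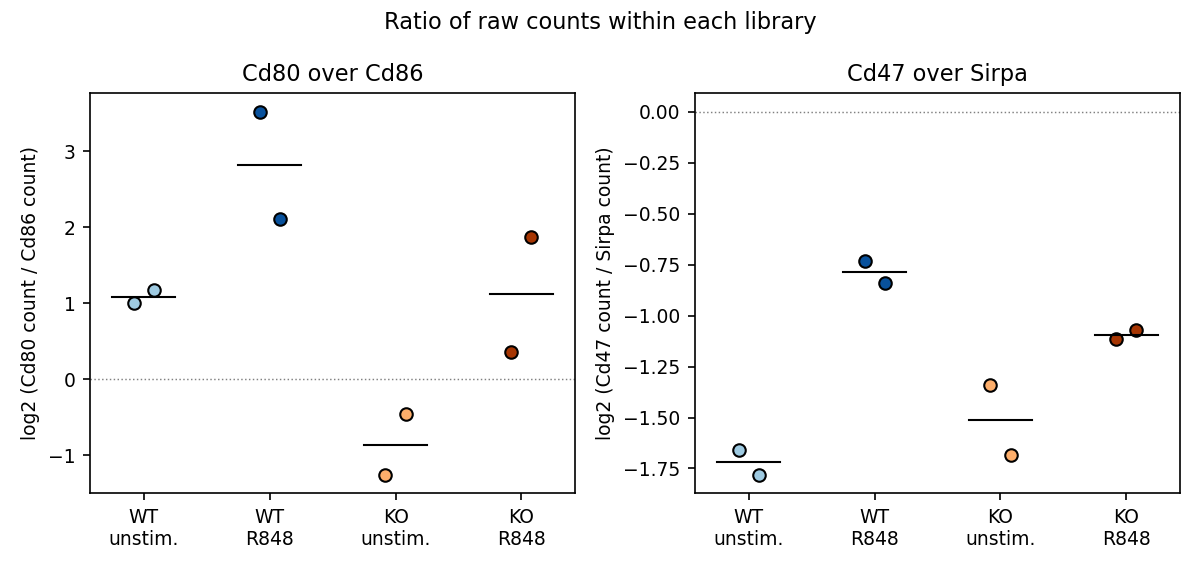
Log2 ratio of the raw counts of 2 genes within each library (y axis), Cd80 over Cd86 on the left and Cd47 over Sirpa on the right, with points for libraries and lines for group means. The R848 libraries have the higher ratio in each genotype; for Cd47 over Sirpa in WT they lie at -0.73 and -0.84 against -1.66 and -1.78.

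Without stimulation, 3 members were lower in Padi4 KO than in WT, namely Cd80, Icosl and Sirpa, and 0 were higher. Among all genes tested, 23.9% were called in this comparison, 14.4% lower and 9.55% higher. Cd80 stood at 12.4 and 15.5 CPM in WT and 5.65 and 5.81 CPM in Padi4 KO, a log2 difference of -1.25 ± 0.54 (edgeR adjusted p = 0.0910). Icosl stood at 75.8 and 46.6 CPM against 38.4 and 41.4 CPM, a difference of -0.62 ± 0.23 (edgeR adjusted p = 0.0410). Sirpa stood at 692.6 and 730.3 CPM against 515.6 and 607 CPM, a difference of -0.33 ± 0.09 (edgeR adjusted p = 0.00169). None of the 3 was called by DESeq2 (adjusted p = 0.362 for Cd80, 0.277 for Icosl and 0.154 for Sirpa) or with library size alone in edgeR, and Cd80 was called in 0 of the 8 fits that left out 1 library, Icosl in 1 and Sirpa in 5. Icosl differed by -0.21 without unstimulated WT replicate 1, the library with its highest value among unstimulated cells.

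The levels of the other members without stimulation did not differ in the test. Cd274 had 5 counts in sum in WT and 17 in Padi4 KO, a log2 difference of 0.86 ± 0.68 (edgeR adjusted p = 0.435). Cd47 differed by -0.15 ± 0.13 (edgeR adjusted p = 0.482), and the sign was positive (0.14) with library size alone. Cd86 had 8 counts in sum in WT and 23 in Padi4 KO, a difference of 0.63 ± 0.61 (edgeR adjusted p = 0.534). In unstimulated Padi4 KO the marker sums of erythroid cells, monocytes and macrophages, dendritic cells, platelets and stromal cells were higher than in WT. Those of neutrophils and of T and NK cells were lower. After R848 those of erythroid cells and platelets were higher and those of neutrophils and stromal cells lower. The monocyte and macrophage sum after R848 was higher in Padi4 KO with library totals and lower with TMM factors. The values are given above, and their part in the genotype differences was not tested.

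After R848, Cd80 and the activation marker Cd69 were lower in Padi4 KO than in WT, and 0 members were higher with TMM factors. Among all genes, 17.3% were called, 7.81% lower and 9.46% higher. Cd80 had 23 and 13 counts in WT (46.9 and 23.0 CPM) and 9 and 11 in Padi4 KO (8.00 and 10.1 CPM), although the Padi4 KO libraries were the deeper ones. The difference was -1.90 ± 0.41 on the log2 scale (edgeR adjusted p = 6.91e-05), and the ratio of scaled counts was 0.265, with an exact counting interval of 0.145 to 0.470. It was called in all 14 alternatives, from -2.44 to -1.48 in the fits that left out 1 library and at -2.04 with DESeq2 (adjusted p = 0.0212). Cd69 stood at 40.8 and 54.9 CPM in WT and 23.1 and 23.9 CPM in Padi4 KO, a difference of -1.03 ± 0.30 (edgeR adjusted p = 0.00711). It was not called by DESeq2 (-1.13, adjusted p = 0.213) or without WT R848 replicate 2 (-0.87, edgeR adjusted p = 0.185).

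Cd274 and Icosl after R848 did not differ between genotypes in the test. Cd274 after R848 differed by -0.14 ± 0.15 (edgeR adjusted p = 0.650), with a ratio of 0.909 and a counting interval of 0.748 to 1.11. Icosl differed by -0.15 ± 0.14 (edgeR adjusted p = 0.591), with a ratio of 0.901 and a counting interval of 0.756 to 1.07. For both, the sign turned positive with library size alone (0.08 and 0.06). Pdcd1lg2 had 7 counts in sum in WT and 4 in Padi4 KO, a ratio of 0.272 with a counting interval of 0.0585 to 1.07 (edgeR adjusted p = 0.265), and it passed without WT R848 replicate 1 (edgeR adjusted p = 0.0978). Cd47 differed by -0.23 ± 0.11 (edgeR adjusted p = 0.195) and passed with relative log expression factors (-0.33, edgeR adjusted p = 0.0286), without WT R848 replicate 1 (-0.36, edgeR adjusted p = 0.0630) and without Padi4 KO R848 replicate 2 (-0.40, edgeR adjusted p = 0.0431). Sirpa differed by 0.07 ± 0.09 (edgeR adjusted p = 0.718), and its sign changed with the scaling: it was -0.03 with relative log expression factors, and with library size alone it was called higher in Padi4 KO (0.29, edgeR adjusted p = 0.0187). Cd40 had 3 counts in sum in WT and 19 in Padi4 KO, a ratio of 3.02 with a counting interval of 0.889 to 15.9 (edgeR adjusted p = 0.270).

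**Figure D4:**
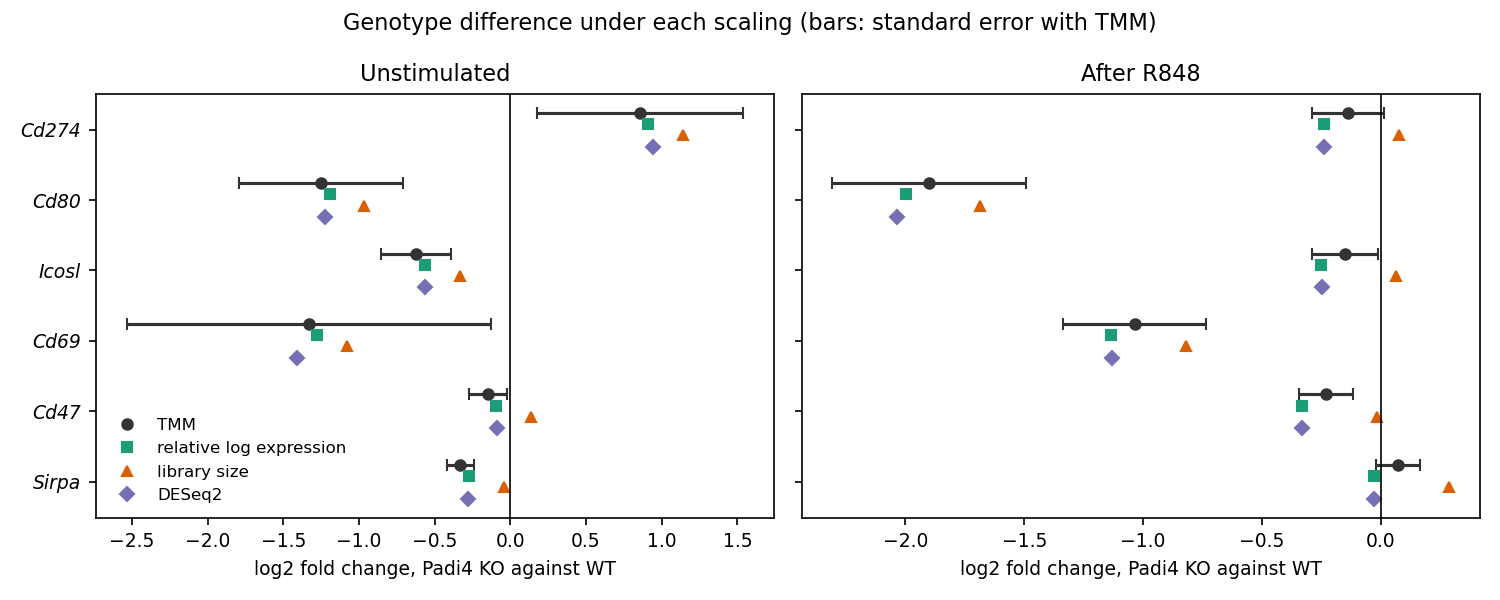
Log2 fold change of Padi4 KO against WT (x axis) without stimulation (left) and after R848 (right) for the 6 genes with at least 10 counts on average, under 4 scalings; bars are standard errors with TMM factors. Cd80 after R848 lies at -1.90 with TMM and at -2.04 with DESeq2, while Icosl and Sirpa without stimulation lie at -0.62 and -0.33 with TMM.

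Scaling shifted the centre of all genes and bears on every small difference above. For Padi4 KO against WT without stimulation, the median log2 difference of the 6912 genes was -0.16 with TMM factors, -0.11 with relative log expression factors and 0.12 with library size alone. After R848 it was -0.00, -0.10 and 0.21. Of the genes called in the unstimulated comparison, 39.9% were higher with TMM factors and 77.2% with library size alone. After R848 these shares were 54.8% and 81.8%, with 42.1% for relative log expression factors. Of the genes called for a difference of response, 73.3% were higher with TMM factors, 40.7% with relative log expression factors, 60.0% with library size alone and 28.0% with DESeq2. With TMM factors, leaving out any 1 of the 4 R848 libraries also turned this share, to 17.2%, 25.7%, 22.7% and 25.7%, so the direction of the calls in that test depends on single libraries. The same 4 fits put the unstimulated share at 55.4% to 57.5% and the share after R848 at 36.7% to 42.3%. For the R848 response, library size alone moved the share of higher calls from 39.8% to 23.0% in WT and from 47.7% to 23.1% in Padi4 KO, and DESeq2 moved the WT share to 53.0%. Relative to these medians, Cd80 after R848 and the R848 responses of Cd274, Icosl and Cd69 were far from the centre under each of the scalings.

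Among 26 names of receptors and partners of the members, 20 genes were tested. After R848, 5 were called higher and 1 lower in WT, beside 7.17% and 10.8% of all genes, and 4 higher and 1 lower in Padi4 KO, beside 8.07% and 8.84%. Ptpn6, the phosphatase SHP-1 that Sirpa recruits, rose by 1.58 ± 0.08 on the log2 scale in WT (edgeR adjusted p = 6.92e-79) and by 1.54 ± 0.08 in Padi4 KO (edgeR adjusted p = 6.17e-86). Ptpn11, the phosphatase SHP-2 that PD-1 and Sirpa recruit, rose by 1.499 ± 0.13 (edgeR adjusted p = 5.33e-27) and 1.49 ± 0.12 (edgeR adjusted p = 3.67e-36). Traf1, an adaptor of TNF receptor family signalling, went from 1 and 1 counts to 84 and 80 in WT, and from 0 and 0 to 136 and 120 in Padi4 KO. Traf3, an adaptor that binds Cd40, was called in Padi4 KO alone (1.36 ± 0.15, edgeR adjusted p = 8.55e-19), and its difference of response was 0.55, which did not pass (edgeR adjusted p = 0.209). In the comparisons of genotype, 5 of the 20 were lower in Padi4 KO without stimulation and 5 after R848, with 0 higher in either, beside 14.4% and 7.81% of all genes lower. Under library size alone, 2 and 1 were lower and 0 higher, and without unstimulated WT replicate 1 the first count was 3.

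Thbs1, thrombospondin-1, a secreted ligand of Cd47, was the 1 gene of that list with a difference of response. In WT its counts went from 256 and 252 to 1314 and 959. In Padi4 KO they went from 306 and 420 to 497 and 526. Its WT rise was 2.39 ± 0.21 (edgeR adjusted p = 2.22e-05), the Padi4 KO change was 0.52 ± 0.21 (edgeR adjusted p = 0.114), and the difference was -1.87 ± 0.30 (edgeR adjusted p = 0.0126). DESeq2 also called it (-2.04, adjusted p = 1.68e-06), and it was not called without unstimulated WT replicate 1 (-1.81, edgeR adjusted p = 0.213) or replicate 2 (-1.94, edgeR adjusted p = 0.164). After R848, Thbs1 was lower in Padi4 KO by 2.24 on the log2 scale. Platelet and megakaryocyte markers, another source of Thbs1, had a mean sum of 96.8 CPM without stimulation and 14.2 CPM after R848 in WT, and 194 and 41.6 CPM in Padi4 KO; their part in the Thbs1 values was not tested.

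Among 54 names of other B7, CD28 and immunoglobulin family genes, 38 were tested, and 7 (18.4%) were called higher and 3 (7.89%) lower after R848 in each genotype. The shares of all genes were 7.17% higher and 10.8% lower in WT and 8.07% and 8.84% in Padi4 KO, so the lower calls were not above the background. Icam1, the adhesion ligand of the beta2 integrins, went from 1 and 1 counts to 208 and 262 in WT and from 6 and 6 to 447 and 410 in Padi4 KO. The inhibitory receptors Siglece (2.61 ± 0.10 in WT and 2.61 ± 0.09 in Padi4 KO) and Pilra (2.51 ± 0.10 and 2.24 ± 0.09) also rose, each with edgeR adjusted p-values of 2.16e-137 or less. In the comparisons of genotype, 10 genes of this list were lower and 1 higher in Padi4 KO without stimulation, and 8 were lower and 1 higher after R848. As shares, 26.3% and 21.1% of the list were lower, beside 14.4% and 7.81% of all genes, and 2.63% were higher, beside 9.55% and 9.46%. With scaling by library size alone the split was 4 lower and 4 higher without stimulation, and 4 lower and 3 higher after R848. Without unstimulated WT replicate 1, 5 were lower and 0 higher without stimulation. Ceacam1, an inhibitory adhesion receptor, was lower in both (-0.52 ± 0.10, edgeR adjusted p = 1.9e-06, and -0.57 ± 0.10, edgeR adjusted p = 3.68e-07).

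In the same list, 3 genes, 2 higher (5.26%) and 1 lower (2.63%), passed the test of the difference of response, beside 3.45% and 1.26% of all genes. Lilrb4a, an inhibitory leukocyte receptor, rose by 1.60 ± 0.09 in WT (edgeR adjusted p = 2.98e-72) and fell short of 2-fold at 0.83 ± 0.08 in Padi4 KO, a difference of -0.77 ± 0.12 (edgeR adjusted p = 5.27e-08). It kept that call in all 14 alternatives. The gene listed as 4632428N05Rik, an older symbol of Vsir, which encodes the checkpoint VISTA, went with R848 from 1018 and 875 counts to 420 and 546 in WT, and from 894 and 1357 to 964 and 946 in Padi4 KO. Its difference of response was 0.55 ± 0.11 (edgeR adjusted p = 0.000154), and it was not called by DESeq2 (adjusted p = 0.117) or in 3 of the fits that left out 1 library. Pirb, a paired inhibitory receptor, had a difference of 0.44 ± 0.12 (edgeR adjusted p = 0.0107) that was not called by DESeq2, with relative log expression factors or in 5 of the fits that left out 1 library, where it went down to 0.17. Of 16 TNF family costimulator names, 9 were tested, with 1 (11.1%) higher and 3 (33.3%) lower in WT and 2 (22.2%) higher and 3 lower in Padi4 KO, beside 7.17% and 10.8%, and 8.07% and 8.84%, of all genes. The higher calls were not stable: the WT one was lost without unstimulated WT replicate 1 or replicate 2, and in Padi4 KO the count was 1 in each fit that left out 1 library and with DESeq2. Tnfsf14 (LIGHT) fell from 54 and 55 counts to 4 and 7 in WT and from 54 and 91 to 13 and 8 in Padi4 KO.

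For each of the 6 members with a mean of 10 counts or more, the genes with the most similar pattern over the 8 libraries were taken by the root mean square difference of centred log2 CPM. Nearest to Cd274 were Tnfrsf1b (0.157), Fth1 (0.181) and Upp1 (0.209), all higher after R848 in both genotypes, with log2 changes of 4.23, 4.51 and 4.62 in WT. Nearest to Icosl were Fyb (0.130), Lst1 (0.147) and Fcgr4 (0.148). Nearest to Cd69 were Sh2b2 (0.231), Irak2 (0.262) and Hmgcs1 (0.272), and nearest to Cd80 were Dusp6 (0.215), Suco (0.270) and G0s2 (0.299). Nearest to Cd47 were Cfl1 (0.0474), Usp47 (0.0663) and Otud7b (0.0719), and nearest to Sirpa were Taok2 (0.0676), Btk (0.0724) and Irak1 (0.0757). The distance is a description over 8 libraries that differ in depth and share 1 scaling.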

How the data were processed

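Groups came from the sample labels, 2 libraries each. Chi-square over degrees of freedom between the 2 libraries was 1.05 in unstimulated Padi4 KO, 1.13 in unstimulated WT, 1.16 in Padi4 KO after R848 and 1.67 in WT after R848. Apart from the last, the libraries of a group thus differed by little more than counting noise. The spread beyond counting error that edgeR estimated in common for all genes was 4.68% as a coefficient of variation. The authors trimmed reads with cutadapt 1.16 after FastQC 0.11.7, mapped them to mm10 with STAR 2.5.3a and counted them with HTSeq 0.6.1p1; the deposited values are raw counts per gene symbol. The annotation and strand setting of the counting are not given in the sources used here. Between 87.0% and 89.5% of each library's reads in the table were on genes, and the summary lines were left out.

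The 12254 genes with at least 1 count in 2 or more libraries were fitted with edgeR 4.0.16 (R 4.3.3, limma 3.58.1): TMM factors, 1 mean per group, robust quasi-likelihood F test. Benjamini-Hochberg adjusted p below 0.1 was the threshold, with over 2-fold for responses, as in the study's methods. Those name DESeq2; DESeq2 1.42.0 was run as an alternative, with other scalings, filters, a replicate block, separate genotype models and each library left out. The model was also run on simulated data with a common spread for all genes and known changes in 200 genes of WT R848 only. That run does not bear on thinly counted members or on the choice of scaling. Each standard error is the size of the log2 change over the root of F; intervals of differences are 1.96 SE. CPM use TMM factors, except floors and marker sums, which use library totals. Ratios of counts have exact 95% intervals for counting error only.

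The members and gene lists were chosen with earlier results of these data known. All 10 members are named; of a list, genes called with at least 10 counts on average, at most 5 per comparison. Of the listed names, 5 were matched through older symbols in RefSeq. Marker sums for B cells were 4.92 to 16.8 CPM, for T and NK cells 5.09 to 40.6, and for eosinophils, basophils and mast cells 15.0 to 56.2. Positions are from GENCODE on GRCm38, promoters from RefSeq on GRCm38.p6. The interferon-stimulated response element core was also searched in an earlier run, had no match in the members' promoter windows and is not reported further.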

Additional observations from a re-analysis of the deposited data

Results flagged for a closer look

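Sirpa was flagged because its R848 response differed between genotypes in edgeR's test of the difference: 0.40 on the log2 scale (Padi4 KO minus WT). It depends on the scaling and on single libraries, as the values in the report show. Thbs1 differed by -1.87, Lilrb4a by -0.77, 4632428N05Rik (Vsir) by 0.55 and Pirb by 0.44 in the same test, all with log2 values as Padi4 KO minus WT. Of these 5 genes, Lilrb4a passed in every alternative run.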

How the results depend on the processing

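Over the members, 595 of 679 recomputed log2 changes kept their direction and their side of the threshold, 47 lost the call, 13 gained it and 24 changed sign. Cd274, Icosl and Cd69 after R848 in both genotypes and Cd80 after R848 between genotypes were called in every alternative run. With DESeq2, 3 members were called in the WT response (Pdcd1lg2 had no adjusted p), 0 in the difference of response, 0 between unstimulated genotypes and 1 after R848, and the counts over all genes were 1289 in place of 2072 for the Padi4 KO response, 125 in place of 577, 1061 in place of 2933 and 1008 in place of 2116. With no limit on the fold, 3621 genes in place of 2207 were called in WT and 4299 in Padi4 KO. Relative log expression factors left 0 members called for the difference of response, as did library size alone, which also left 0 between unstimulated genotypes. Leaving out 1 library gave 3 to 5 members in WT, 4 to 5 in Padi4 KO, 0 to 1 for the difference, 0 to 2 without stimulation and 1 to 4 after R848, and 1893 to 2205, 1829 to 2194, 268 to 471, 1944 to 2795 and 1711 to 2119 genes in all. Of the listed genes, DESeq2 called 3 of the receptors and partners in place of 5 and 5 of the B7, CD28 and immunoglobulin family in place of 11 between unstimulated genotypes, and 1 in place of 3 of that family for the difference. The cause was not tested.

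Signs changed as follows. The Sirpa response in Padi4 KO was -0.0011 in DESeq2, -0.0062 under relative log expression factors, -0.30 under library size alone, and -0.095 to 0.21 without 1 library. Sirpa after R848 was -0.026 and -0.027 in the first 2 of these, and -0.10 to 0.077 without 1 library. With library size alone, Cd47 without stimulation was 0.14, and after R848 Cd274 was 0.076, Cd86 0.14 and Icosl 0.064; Cd86 was -0.85 to 0.29 without 1 library. The difference of response without 1 library was -0.32 to 0.77 for Cd69, -1.71 to 2.71 for Cd83, and -2.35 to 1.55 for Cd40.

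The replicate numbers did not pair the libraries: deviations of same-numbered libraries correlated between -0.02 and 0.0199 over 6912 genes. With the replicate number as a block, Cd80 between unstimulated genotypes was -1.21 (edgeR adjusted p = 0.109) and no longer called, Cd86 in Padi4 KO was -1.21 (edgeR adjusted p = 0.0984) and newly called, and no other member's call changed; 2140, 1940, 575, 2847 and 2081 genes were called in the 5 comparisons. Depth limits Pdcd1lg2, Cd86, Cd40 and Cd83, with 7 to 46 counts in all.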
